A study of Mus musculus with 6 samples.

Results

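The regions described here are the ATRX peaks of mouse chromosomes 1 to 19 and X whose midpoint lies in the last 5 Mb of the chromosome as assembled in mm9, that is, next to the distal telomere. Of the 2054 peaks in the list from mouse embryonic fibroblasts (MEFs), 188 qualified. Of the 983 peaks in the list from erythroid foetal liver cells, 58 did, so that 246 of 3037 listed peaks are described, each with its list of origin. Membership was set by position alone. The last 3 MEF peaks inside the limit lay 4.94, 4.95 and 4.97 Mb from the end and the first 3 outside it 5.02, 5.05 and 5.05 Mb. In foetal liver the last 3 inside lay at 4.48, 4.87 and 4.91 Mb and the first 3 outside at 5.02, 5.10 and 5.17 Mb.

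ATRX is an ATP-dependent chromatin remodelling protein of the SWI/SNF family. With its partner DAXX it places the histone variant H3.3 at telomeres, at pericentromeric repeats and at other repeated DNA, and loss of ATRX is known from tumour cells that maintain telomeres without telomerase. G-rich tandem repeats, which can fold into G-quadruplex DNA and can form R-loops (RNA paired with 1 DNA strand) when transcribed, are described as places where it binds. Subtelomeres are the stretches next to telomeres and are often rich in such repeats and in genes. Mouse chromosomes have the centromere at the low-numbered end, so the last bases of each assembled chromosome are those nearest the distal telomere. The series title names R-loops in transcribed telomeric repeats as the study's subject.

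ATRX was mapped by chromatin immunoprecipitation and sequencing with the H300 antibody in cultured C57BL/6 MEFs and in C57BL/6 foetal liver cells of stage E14.5 that had been selected for Ter119, a surface protein of erythroid cells. Neither group carries a mutation or a treatment in the labels, and each is 1 library, without a replicate. The remaining 4 samples of the series (the C57BL/6 MEF input, ATRX and input of MEFs named W8, and ATRX of Suv39h1/2 knockout MEFs) were not analysed here. The lists hold positions only. Depth and peak strength are therefore unknown, intervals below are exact Clopper-Pearson 95% intervals or order-statistic intervals that cover the counting of peaks only, and what sets the lists apart may lie in the cells, the depth, the control or the library, which cannot be told apart. Peaks of 1 list are not replicates, and neighbouring peaks are not independent.

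Peaks were denser in the last 5 Mb than in the rest of the chromosomes in both lists. The last 5 Mb of 20 chromosomes make up 3.88% of the assembled length, counted without the first 3 Mb of each chromosome. They held 9.17% of the 2051 MEF peaks on these chromosomes (interval 7.95 to 10.5%) and 5.94% of the 976 foetal liver peaks (4.54 to 7.61%). The density of MEF peaks was 1.88 per Mb in the last 5 Mb and 0.752 per Mb elsewhere, a ratio of 2.50. In foetal liver it was 0.580 and 0.370 per Mb, a ratio of 1.57. The peaks covered 272 kb, or 0.272%, of the last 5 Mb in MEFs and 77.1 kb, or 0.0771%, in foetal liver. In the remaining length the shares were 0.109% and 0.0340%.

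The higher density did not stop at 5 Mb. The next 5 Mb towards the centromere held 184 MEF peaks, or 1.84 per Mb, and 64 foetal liver peaks, or 0.640 per Mb. The last 5 Mb had 1.02 times the density of the next 5 Mb in MEFs (interval of the ratio 0.829 to 1.26) and 0.906 times in foetal liver (0.624 to 1.31), so these counts do not separate the adjoining stretches. Chromosomes were split on the order: MEF peaks were more numerous in the last 5 Mb on 9 chromosomes and in the next 5 Mb on 11, and foetal liver peaks on 10 and 9, with 1 tie. From 10 to 20 Mb the density was 1.16 per Mb in MEFs and 0.520 per Mb in foetal liver, still above the mean outside the last 5 Mb. The highest MEF density of the 20 steps of 1 Mb nearest the end was 3.10 per Mb, at 7 to 8 Mb, where 12 of the 62 peaks were on chromosome 19.

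**Figure D1:**
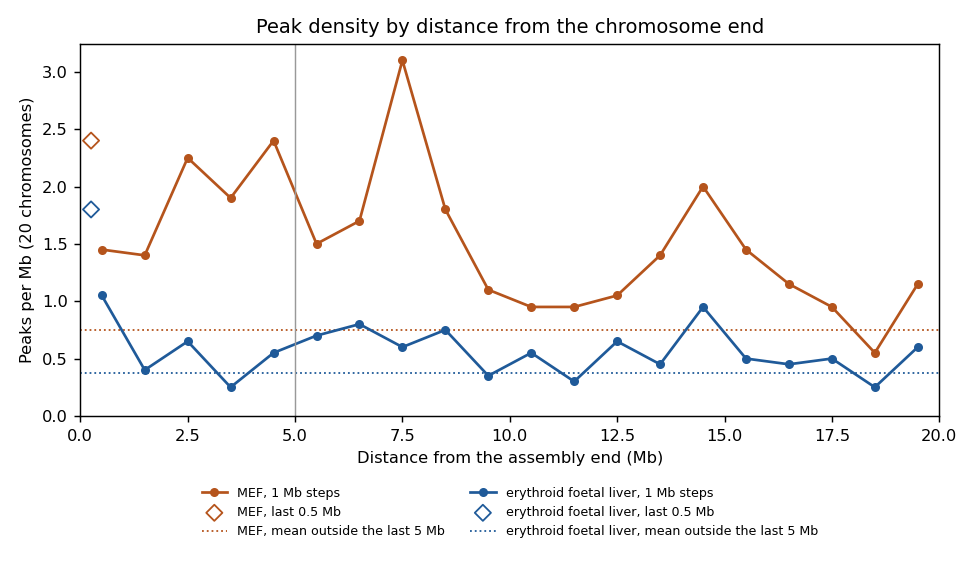
Peaks per Mb over 20 chromosomes (vertical axis) against distance from the assembly end in Mb (horizontal axis), in 1 Mb steps, for MEF and erythroid foetal liver; open diamonds are the last 0.5 Mb alone and dotted lines the mean density outside the last 5 Mb. MEF density stays above its dotted line of 0.752 per Mb out to 18 Mb, while foetal liver density is highest in the last 1 Mb, at 1.05 per Mb.

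Within the last 5 Mb the lists were arranged differently. The foetal liver peaks crowded towards the end: their median distance from it was 1.93 Mb (order-statistic interval 1.27 to 2.39 Mb), and 25% of them lay within 0.415 Mb. The MEF peaks had a median distance of 2.86 Mb (2.58 to 3.27 Mb), with 25% of them within 1.82 Mb. An even spread would put 20% of peaks in each 1 Mb step. In foetal liver the steps from the end inwards held 21, 8, 13, 5 and 11 peaks, so the outer 1 Mb held 36.2% (24.0 to 49.9%). Without chromosome 6 the foetal liver share was 33.9% (21.8 to 47.8%). With peaks within 100 kb merged it was 32.6% (19.1 to 48.5%) and on autosomes alone 30.2% (18.3 to 44.3%). In the wider 50% of the list it was 31.0% (15.3 to 50.8%), and these last intervals, unlike that without chromosome 6, include 20%. In MEFs they held 29, 28, 45, 38 and 48 peaks, and the outer 1 Mb held 15.4% (10.6 to 21.4%).

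The crowding in foetal liver belonged to the outermost 0.5 Mb, which held 18 peaks, or 31.0% of the 58 (19.5 to 44.5%), where an even spread would give 10%. From 0.5 to 1 Mb there were 3. MEFs had the same step, from 24 peaks (12.8%, 8.35 to 18.4%) to 5, but inner steps of 0.5 Mb held as many as 26. In the last 0.1 Mb alone the lists were alike in number, with 6 MEF peaks (3.00 per Mb) and 7 foetal liver peaks (3.50 per Mb). Each set was on 4 chromosomes, with 3 of the MEF peaks on chromosome 2 and 3 of the foetal liver peaks on X. Of the 24 MEF peaks, 10 formed a run on chromosome 6, and without that chromosome the MEF share was 8.70%. Counting peaks within 100 kb of each other as 1 gave 7.26% in MEFs and 25.6% in foetal liver. Chromosome X gave 5 of those 18 in foetal liver, and without X the share there was 24.5%.

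The balance between the lists shifted with distance accordingly. Over whole chromosomes there were 2.10 MEF peaks for each foetal liver peak. In the last 0.5 Mb there were 1.33, and from 0.5 to 1 Mb 1.67, from 5 MEF and 3 foetal liver peaks. From 1 to 2, 2 to 3, 3 to 4 and 4 to 5 Mb there were 3.50, 3.46, 7.60 and 4.36. The value of 7.60 rests on 5 foetal liver peaks. Over the last 5 Mb as a whole the ratio was 3.24, against 2.88 in the next 5 Mb. Whether these ratios differ between cell types rather than between libraries was not tested.

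**Figure D2:**
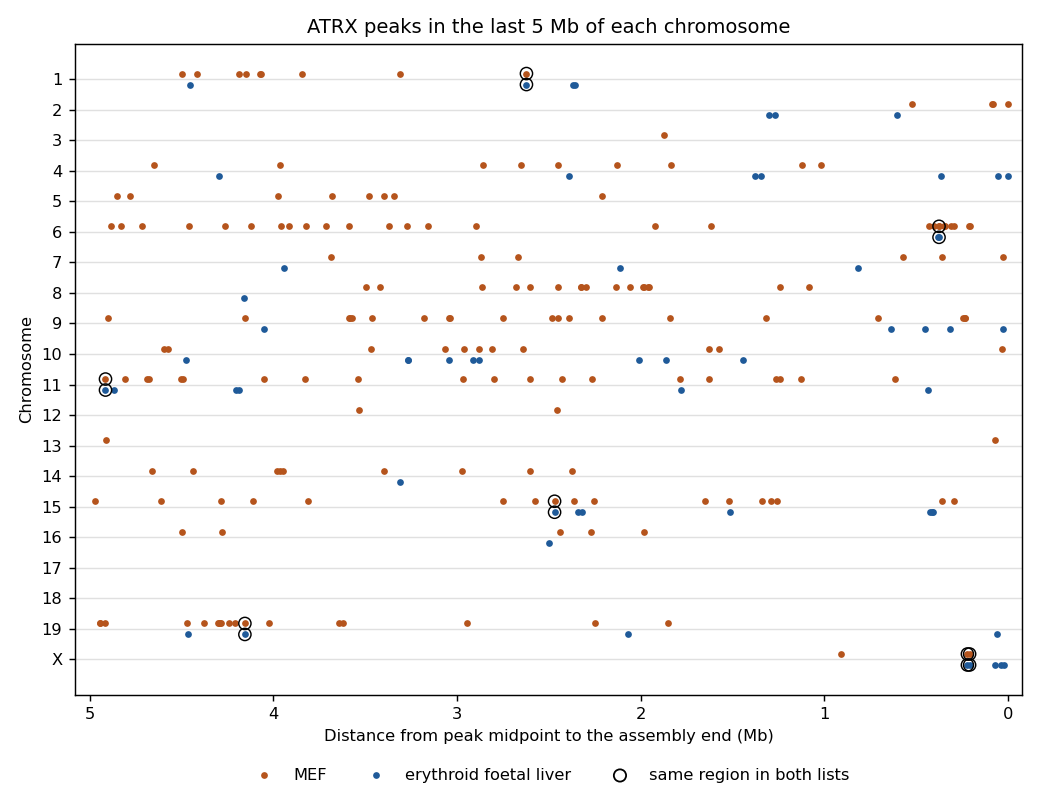
Each dot is an ATRX peak, placed by the distance of its midpoint from the assembly end in Mb (horizontal axis, end at the right) on its chromosome (vertical axis), for MEF and erythroid foetal liver; circles mark the 7 regions with the same start and end in both lists. The run of 10 MEF peaks on chromosome 6 and the 5 foetal liver peaks on X stand near the right edge, and chromosomes 17 and 18 are empty.

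The outermost 0.5 Mb was occupied on 11 of 20 chromosomes, on 8 by MEF peaks, on 7 by foetal liver peaks and on 4 (6, 9, 15 and X) by both. The peak nearest an end in MEFs was on chromosome 2 (181746821 to 181748087). It was 1267 bp wide and finished on the last base of the assembly, 0 bp from it, with its midpoint at 0.633 kb. A further 2 MEF peaks of 988 and 423 bp lay behind it, at 85.3 and 82.6 kb. In foetal liver the nearest peak was on chromosome 4 (155629651 to 155630056), 406 bp wide and 64 bp short of the end, with a 952 bp peak at 53.3 kb and a 531 bp peak at 362 kb behind it. Neither list had a peak of its own within 0.5 Mb where the other had its nearest: the outermost foetal liver peak of chromosome 2 lay at 602 kb, and the outermost MEF peak of chromosome 4 at 1017 kb.

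Other chromosomes differed in the same way. On chromosome 7 the outermost MEF peak (152498907 to 152499818) lay at 25.2 kb and the outermost foetal liver peak at 815 kb. On chromosome 10 the MEF peak (129960132 to 129961227) was at 32.6 kb and the foetal liver peak (128550876 to 128553308) at 1441 kb. The order was the opposite on chromosome 19, where the foetal liver peak (61283363 to 61283976) lay at 58.8 kb and the outermost MEF peak at 1852 kb, and on chromosome 9, where the foetal liver peak (124052694 to 124053186) lay at 23.2 kb and the outermost of a group of 3 MEF peaks at 232 kb. On chromosome 13 a MEF peak of 388 bp (120217059 to 120217446) lay at 67.1 kb and no foetal liver peak was in the last 5 Mb.

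On chromosome 15 the outermost peaks of the lists stood close together, at 293 kb in MEFs (103202045 to 103202894) and 406 kb in foetal liver (103088807 to 103089268). On chromosome 11 the foetal liver peak (121409152 to 121409585) was at 434 kb and the MEF peak at 613 kb. Of the 14 chromosomes with peaks of both lists in the last 5 Mb, the outermost peak was the MEF one on 8 and the foetal liver one on 6. The outermost peak was more than 1 Mb from the end on chromosomes 1, 8, 14 and 16 in both lists. It was on chromosomes 3, 5 and 12 as well in MEFs, where foetal liver had none. The distances were 2622 and 2358 kb on chromosome 1 in MEFs and foetal liver, 1083 and 4158 kb on chromosome 8, 2374 and 3311 kb on chromosome 14, and 1983 and 2497 kb on chromosome 16.

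The distal end of X held the widest of these regions. Mouse X and Y pair at male meiosis through the pseudoautosomal region, which lies at the distal end of X; its boundary was not placed here, since no mm9 annotation was used. A region of 14118 bp (166423463 to 166437580) and one of 9184 bp (166437863 to 166447046), 0.282 kb apart, had the same start and end in both lists, with midpoints at 220 and 208 kb. Beyond them, nearer the end, foetal liver had 3 narrow peaks of 978, 376 and 407 bp at 69.4, 39.4 and 18.8 kb (166580372 to 166581349, 166610735 to 166611110 and 166631332 to 166631738), and MEFs had none. The only other MEF peak of the last 5 Mb of X was 952 bp wide, at 907 kb. In MEFs 3 of the 11 peaks of X (27.3%) and in foetal liver 5 of the 12 (41.7%) fell in the last 5 Mb. That stretch is 3.06% of the assembled length of X without its first 3 Mb. Elsewhere on X the density was 0.0504 (MEF) and 0.0441 (foetal liver) peaks per Mb.

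The run on chromosome 6 was the largest in the last 5 Mb of either list, where a run is a set of peaks with gaps of at most 100 kb. It held 10 MEF peaks over 223 kb (149089473 to 149312353), of which 21.0 kb was covered, and ended 205 kb from the end of the assembly. Widths in it ran from 657 to 5004 bp with a median of 1520 bp, and gaps from 0.112 to 78.0 kb. The widest was at 149224380 to 149229383 and the outermost (149308685 to 149312353) was 3669 bp wide. Foetal liver had 2 peaks inside this run. The first, of 1447 bp (149141910 to 149143356), was also in the MEF list with the same start and end, and the second, of 739 bp (149136939 to 149137677), lay 2.53 kb from a MEF peak of 1593 bp. All foetal liver peaks in the last 5 Mb of chromosome 6 were these 2, against 27 MEF peaks.

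The second largest run held 9 MEF peaks over 316 kb of chromosome 19 (56871663 to 57187931), with widths from 385 to 4921 bp and its outer edge at 4.15 Mb. It contained 2 foetal liver peaks. The outer of them was the same region in both lists (57186465 to 57187931, 1467 bp). The third held 6 MEF peaks over 178 kb of chromosome 8 (129605297 to 129783498), 1.96 Mb from the end, and no foetal liver peak. Runs of 4 MEF peaks lay on chromosome 1 (193005809 to 193127523, 0 foetal liver peaks) and chromosome 10 (126929552 to 127182175, 3 foetal liver peaks, none of them identical to a MEF peak). These 5 runs took in 33 of the 188 MEF peaks.

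Foetal liver runs were short. No run in its last 5 Mb had more than 3 peaks, and 2 had that number. The first lay on chromosome 15 (103071175 to 103089268), where peaks of 343, 1089 and 462 bp stood within 18.1 kb, 406 kb from the end. The second was the group of narrow peaks at the end of X. Of the 11 runs of 2, those on chromosome 4 (155576384 to 155630056), chromosome 6 and X (the wide neighbours) lay within 0.5 Mb of an end. The remaining 8 were on chromosomes 1, 2, 4, 10 (2 runs), 11 (2 runs) and 15. Ordered by size and then by chromosome name, the 5 largest runs ended with those on chromosome 1 (194827686 to 194837874) and chromosome 10 (126726225 to 126729418 and 127078890 to 127115454).

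MEF peaks were closer to each other in the last 5 Mb than in the rest of the list as a whole, though not than in the adjoining 5 Mb, while the few foetal liver peaks showed no difference beyond the counting intervals. The median gap to the nearest MEF peak was 100 kb in the last 5 Mb (order-statistic interval 76.4 to 120 kb) and 162 kb elsewhere (144 to 180 kb). In the next 5 Mb alone it was 84.7 kb (59.6 to 117 kb). A neighbour within 100 kb was present for 94 of 188 MEF peaks (50.0%, 42.6 to 57.4%), against 40.7% of the whole list and 39.8% outside the last 5 Mb. Within 10 kb the share was 34 of 188 (18.1%, 12.9 to 24.3%), against 12.8% of the whole list, and within 1 kb it was 14 of 188 (7.45%, 4.13 to 12.2%), against 4.49%. At 10 kb and 1 kb these intervals overlap those of the peaks outside the last 5 Mb (12.3%, 10.8 to 13.9%, and 4.19%, 3.32 to 5.20%). Isolated peaks made up a smaller share near the ends: 3.72% of MEF peaks there lay more than 1 Mb from any MEF peak, against 13.0% elsewhere. A denser stretch has shorter gaps, and spacing beyond what density gives was not tested.

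In foetal liver the median gap was 127 kb in the last 5 Mb (32.6 to 291 kb) and 153 kb elsewhere (125 to 201 kb). A neighbour within 100 kb was present for 28 of 58 (48.3%, 35.0 to 61.8%), against 44.9% of the whole list. Within 10 kb it was 10 of 58 (17.2%, 8.59 to 29.4%), against 18.5%. The 2 foetal liver peaks with a neighbour within 1 kb were the wide regions on X, out of 4 in the whole list (0.410%). More than 1 Mb from any peak of the list lay 15 of the 58 (25.9%), against 22.7% elsewhere.

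**Figure D3:**
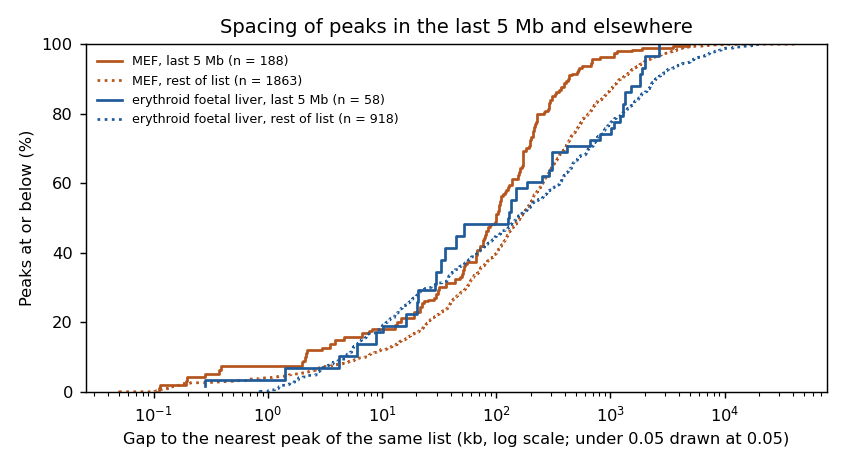
Cumulative share of peaks in percent (vertical axis) by the gap to the nearest peak of the same list in kb (horizontal axis, log scale), for peaks in the last 5 Mb (solid) and the rest of the list (dotted). The MEF solid line lies to the left of its dotted line over most of the range, with medians of 100 and 162 kb, while the foetal liver lines cross.

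Widths in the last 5 Mb were like those of each list elsewhere at the median. Wide peaks made up a larger share in foetal liver, on few peaks and in part through regions shared with the MEF list. The median MEF width was 1049 bp (order-statistic interval 946 to 1132 bp) against 1018 bp (979 to 1066 bp) elsewhere, and the middle 50% ran from 701 to 1554 bp. The median foetal liver width was 681 bp (531 to 858 bp) against 674.5 bp (649 to 709 bp), with the middle 50% from 444.5 to 1071 bp. The narrowest MEF peak measured 319 bp and the narrowest foetal liver peak 303 bp. Rank correlation of width with distance from the end over the members was -0.032 in MEFs (188 peaks) and 0.10 in foetal liver (58 peaks), given as a description of peaks that share a library. In the last 0.5 Mb the median was 1108 bp for 24 MEF peaks and 572.5 bp for 18 foetal liver peaks.

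Peaks of 2 kb or more made up 32 of 188 in MEFs (17.0%, 11.9 to 23.2%), against 18.5% of the whole list. In foetal liver they made up 8 of 58 (13.8%, 6.15 to 25.4%), against 4.61% of the whole list and 4.03% outside the last 5 Mb (2.85 to 5.51%). Of the 8 wide foetal liver peaks, 5 were regions with the same boundaries in both lists. Outside the last 5 Mb, 37 foetal liver peaks were 2 kb or wider, and 18 of them were not such regions. Among the 51 foetal liver peaks of the last 5 Mb that were not such regions, 3 were 2 kb or wider (5.88%, 1.23 to 16.2%). Elsewhere the share among foetal liver peaks that were not such regions was 2.08% (1.24 to 3.27%), and these intervals overlap. On autosomes alone, shared regions included, the foetal liver share in the last 5 Mb was 6 of 53 (11.3%, 4.27 to 23.0%). That interval overlaps the 2.85 to 5.51% outside the last 5 Mb, where X was counted. At 5 kb or more there were 6 MEF peaks (3.19%, 1.18 to 6.82%), against 3.02% of the whole list. Foetal liver had 3 (5.17%, 1.08 to 14.4%), against 1.43%, and all 3 were regions with the same boundaries in both lists.

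After the 2 regions on X, the widest MEF peaks were chr1:193005809-193011668 (5860 bp), chr8:129060007-129065616 (5610 bp), chr1:194571220-194576390 (5171 bp) and the 5004 bp peak of the chromosome 6 run. They were followed by chr19:57049319-57054239 (4921 bp), chr11:120580146-120584683 (4538 bp), the 3669 bp peak of that run and chr11:116927625-116931131 (3507 bp). The 10 widest were thus spread over distances from 0.207 to 4.91 Mb. In foetal liver the 5 widest were all regions identical in MEFs: the 2 on X and those on chromosomes 1 (5171 bp), 11 (3507 bp) and 15 (3103 bp). The next, absent from the MEF list, were chr10:128550876-128553308 (2433 bp), chr15:101153884-101156255 (2372 bp), chr4:154284680-154286859 (2180 bp), chr19:59274123-59275924 (1802 bp) and chr14:121883108-121884623 (1516 bp).

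**Figure D4:**
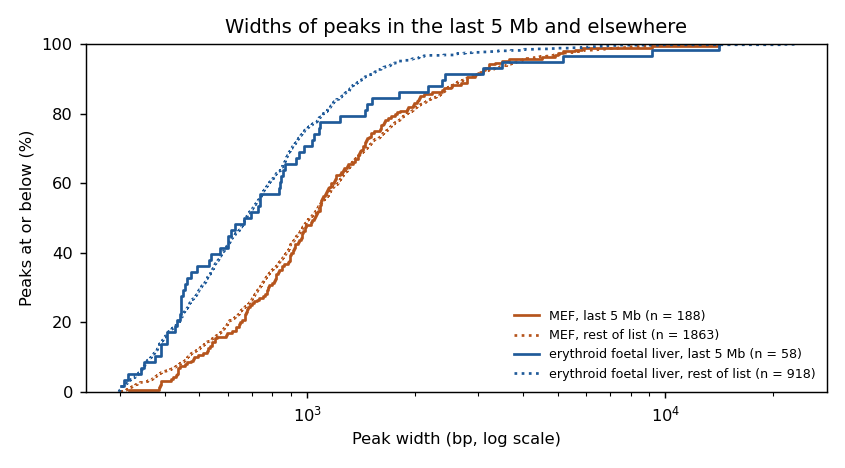
Cumulative share of peaks in percent (vertical axis) by peak width in bp (horizontal axis, log scale), for peaks in the last 5 Mb (solid) and the rest of the list (dotted). The MEF lines run together around medians of 1049 and 1018 bp. The foetal liver lines share their median but part above about 1 kb, where 13.8% of peaks in the last 5 Mb (8 of 58) and 4.03% elsewhere are 2 kb or wider. Without the regions identical in both lists these shares are 5.88 and 2.08%, with overlapping intervals.

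Few peaks were common to the lists, in the last 5 Mb as in the whole lists. By an overlap of at least 1 bp, 7 of 188 MEF peaks (3.72%, 1.51 to 7.52%) and 7 of 58 foetal liver peaks (12.1%, 4.99 to 23.3%) were shared, against 2.97% and 6.15% of the whole lists. With peaks within 100 kb merged into 1 span, the shares were 6.45% (8 of 124) and 23.3% (10 of 43), and in the wider 50% of each list 7.14% and 24.1%. Outside the last 5 Mb, 53 of 54 overlapping MEF peaks and 53 of 53 overlapping foetal liver peaks had the same start and end in both lists. All 7 in the last 5 Mb did too, and whether these boundaries were set separately in each library is unknown. Besides the 2 regions on X and those on chromosomes 6 (149141910 to 149143356) and 19 (57186465 to 57187931), they were on chromosome 1 (194571220 to 194576390), chromosome 11 (116927625 to 116931131) and chromosome 15 (101024988 to 101028090). Their midpoints lay from 0.208 to 4.91 Mb from the end and their median width was 3507 bp, against 1024 bp for the 181 other MEF peaks and 603 bp for the 51 other foetal liver peaks.

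Near misses added 5 peaks in each list. A peak of the other list within 10 kb was present for 12 MEF peaks (6.38%, against 5.61% of the whole list) and for 12 foetal liver peaks (20.7%, against 11.9%). Apart from those in the chromosome 6 run, they were neighbours 1.38 kb apart on chromosome 10 (MEF 127110842 to 127113631, 2790 bp, and foetal liver 127115011 to 127115454, 444 bp), 3.17 kb apart on chromosome 15 (MEF 101975687 to 101977712 and foetal liver 101980884 to 101981613), 4.17 kb apart on chromosome 19 and 5.80 kb apart on chromosome 11. Within 100 kb the shares were 39 of 188 in MEFs (20.7%, 15.2 to 27.2%, against 14.9% of the whole list) and 28 of 58 in foetal liver (48.3%, 35.0 to 61.8%, against 33.2%). Proximity to the other list also rises with the density of that list, which was higher in the last 5 Mb. The 100 kb rule was met by all 7 foetal liver peaks on chromosome 15 and by 8 of the 27 MEF peaks on chromosome 6.

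Chromosomes differed widely, although each contributes the same 5 Mb. MEF peaks were present on 18 of 20 chromosomes. The most were on chromosome 6, with 27 (14.4%, 9.68 to 20.2%, where an even spread would give 5%), then chromosomes 9 and 11 with 20 each, 19 with 18, and 8 and 15 with 17 each. The 5 fullest chromosomes held 54.3% of them. The fewest were on chromosome 3, with 1, chromosomes 12 and 13, with 2 each, and X, with 3. Foetal liver peaks were present on 14 chromosomes, with 9 on chromosome 10 (15.5%, 7.35 to 27.4%), 7 each on 4 and 15, 6 on 11 and 5 each on 9 and X. The 4 fullest of them held 50.0%.

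Chromosomes 17 and 18 had no peak of either list in their last 5 Mb, although 115 and 68 MEF peaks and 53 and 32 foetal liver peaks lay elsewhere on them. A count of 0 in a list of positions gives no limit on binding. Chromosomes 3, 5, 12 and 13 had MEF peaks only, and no chromosome had foetal liver peaks only. On the 14 chromosomes with both, MEF peaks were the more numerous on 13 and foetal liver peaks on X. The counts of the lists over 20 chromosomes had a Pearson correlation of 0.45 and a rank correlation of 0.65 (0.58 and 0.72 without chromosome 6), as a description of 2 lists that share regions and chromosomes.

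**Figure D5:**
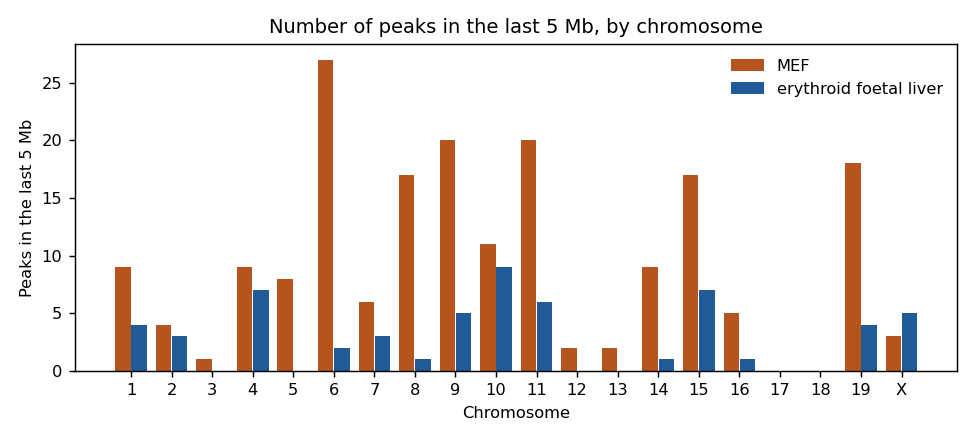
Number of ATRX peaks in the last 5 Mb (vertical axis) of each chromosome (horizontal axis) in MEF and erythroid foetal liver. Chromosome 6 leads in MEF with 27 peaks against 2 in foetal liver, chromosome 10 leads in foetal liver with 9 against 11 in MEF, and chromosomes 17 and 18 have none.

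Counts at the ends did not simply follow the number of peaks on the chromosome. Chromosome 10 held 225 MEF peaks, of which 11 (4.89%) were in the last 5 Mb, a stretch that is 3.94% of its length. Chromosome 6 held 203, of which 27 (13.3%) were, against 3.41% of length. Shares of 15 to 19% were found on chromosomes 8 (15.6%), 9 (15.5%), 11 (18.7%), 14 (17.3%), 15 (16.7%) and 19 (17.5%), where the last 5 Mb is 3.88, 4.13, 4.21, 4.09, 4.98 and 8.57% of length. In foetal liver chromosome 11 held 104 peaks, of which 6 (5.77%) were in the last 5 Mb, while chromosome 10 had 9 of 53 (17.0%) and chromosome 15 had 7 of 35 (20.0%). The density in the last 5 Mb was above that of the rest of the same chromosome on 15 of 20 chromosomes in MEFs and on 12 of 20 in foetal liver.

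Set against windows of 5 Mb laid from the distal end inwards, the last window was among the fuller ones of its chromosome more often in MEFs. The MEF list is also the longer one (2051 against 976 peaks), and most foetal liver windows held few peaks. Ranks are therefore not comparable between the lists. The 20 last windows had a median of 8.50 MEF peaks and the 485 other windows a median of 2.00. In foetal liver the medians were 2.50 and 1.00. The last window held the most MEF peaks of its chromosome, alone or tied, on 5 chromosomes (6, 9, 11, 14 and X). It ranked first or second on 12, where tied windows share the better rank, so that a second place can be shared by several windows. In foetal liver it ranked first on 3 (10, 15 and X) and first or second on 5. Windows with 0 peaks numbered 2 of 20 at the end and 109 of 485 (22.5%) elsewhere in MEFs, and 6 of 20 and 193 of 485 (39.8%) in foetal liver.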

How the data were processed

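ATRX ChIP-seq of 1 MEF library and 1 erythroid foetal liver library was analysed through the peak lists deposited by the authors, which give chromosome, start and end in 3 columns and no score or read count. Per the submitters' processing notes, alignment used Bowtie 0.12.3 and the build mm9. No peak caller, threshold, control library or filter is named: these were not given in the sources used here. No peak ended past its mm9 chromosome length (GenomeInfoDb 1.38.1). Starts are printed counted from 1.

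Members were peaks with a midpoint less than 5 Mb from the assembly end on chromosomes 1 to 19 and X. The 3 MEF and 7 foetal liver peaks of chromosome Y were left out, and so were the unsequenced first 3 Mb in lengths. Other gaps in the assembly were not taken out of lengths. Distances are from the midpoint unless an edge is named, and gaps run edge to edge. With 1 library a list, no test was made. The members and lists were chosen with earlier results of these data known. Named regions were, per list, the outermost of each chromosome, the 10 widest, the 5 largest runs, 3 on each side of the limit and all shared ones; other positions were chosen after their values were seen. Alternatives were other windows, distances and overlaps, merging within 100 kb, the wider 50% of each list, autosomes only and leaving out chromosome 6. Planted counts of members, of peaks with a neighbour within 10 kb, of overlaps and of merged members were recovered in 20 of 20 simulated lists. Widths, runs, intervals and window ranks were not checked in this way. Sequence and genes were not analysed here, since no mm9 genome or annotation was used. Python 3.11.15, numpy 2.4.6, pandas 2.3.3, scipy 1.17.1 and matplotlib 3.10.9 were used.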

Additional observations from a re-analysis of the deposited data

How the results depend on the processing

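No paired analysis was possible because each group is 1 library. Of 80 planned recalculations, 64 stayed within the interval of the reported value and 16 did not, the latter mostly where the definition itself changed. They reuse the same peaks, and some intervals are wide, so staying inside is a weak check. Asking for an overlap of 50% of the shorter peak could change nothing, since all shared members have the same boundaries in both lists. The share of peaks near the end was 3.90% (MEF) and 4.00% (foetal liver) for the last 2.5 Mb, and 18.1% and 12.5% for the last 10 Mb. The 3.88% of length given for the last 5 Mb does not apply to these windows, whose lengths differ. At 2.5 Mb the shares of the lists were alike (80 of 2051 and 39 of 976 peaks), unlike at 5 Mb (9.17% and 5.94%). The median width became 1250 and 870 bp, as spans, with peaks within 100 kb merged, and 1508 and 1080 bp in the wider 50% of each list. A neighbour was present within 1 kb for 7.45% and 3.45%, and within 100 kb for 50.0% and 48.3%; in the wider 50% the MEF share within 10 kb was 11.2%. A peak of the other list lay within 100 kb for 20.7% and 48.3%, and in the wider 50% of foetal liver 24.1% overlapped. Merging within 100 kb leaves no neighbours to count, so that share was not recomputed. Of 18 alternatives chosen after seeing the data, 2 left the interval: the MEF share in the outer 0.5 Mb with peaks within 100 kb merged (7.26%), and the foetal liver share of peaks of 2 kb or more without the identical regions (5.88%). Unknown depth and caller, and 58 foetal liver peaks, limit all of these values, as do the 1 library in each list and the lack of a score.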
